A study of Mus musculus with 48 samples.

Results

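The 42 genes described here drive cell division: cyclins and cyclin-dependent kinases, E2F factors, kinase inhibitors, replication proteins and mitotic proteins. They were a fixed list, all 42 of its symbols were found among the 30743 gene rows of the count table, and no measured value was used by the rule itself. Messenger RNA was sequenced in 48 libraries of cardiomyocytes isolated with collagenase from mouse hearts. C57BL/6J (C57) and C3H/HeN (C3H) mice and 2 mitochondria-nuclear exchange (MNX) lines, which carry the nucleus of one strain (n) and the mitochondria of the other (mt), were compared 3 days after ACF (aortocaval fistula, a model of volume overload) or sham surgery. The first 24 libraries (set A) carry the surgery in their titles and form 8 groups of 3, ACF and sham for each of C57_wt, C3H_wt, C57_MNX and C3H_MNX. The other 24 (set B) are sham libraries in 4 groups of 6, labelled C3Hn:C3Hmt, C3Hn:C57mt, C57n:C3Hmt and C57n:C57mt.

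Libraries held 15.89 to 20.77 M counts in set A and 15.97 to 26.09 M counts in set B. The title group C57_MNX of set A carries the genotype label C3Hn:C57mt and C3H_MNX carries C57n:C3Hmt, but the nuclear expression profile went with the titles. Over 31 genes higher on the C3H nucleus in set B, scaled so that C57 nuclei average 0 and C3H nuclei 1, C57_MNX libraries scored -0.054 to 0.058 and C3H_MNX libraries 0.844 to 0.96. Set A groups are therefore named by title, and which nucleus the exchange animals had cannot be settled from the labels. Library 489 of C57_wt ACF stood apart. Its 12 cardiomyocyte markers summed to 10560 CPM (counts scaled to a common library size), against 48150 to 84230 CPM in the other libraries of set A. Its 7 measured erythrocyte genes summed to 69620 CPM, against 315.9 CPM in library 6693 of C57_MNX ACF and 8.98 to 177 CPM in the other 22.

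Adult mouse cardiomyocytes have largely left the cell cycle, and most of their messenger RNA for mitotic proteins is low. In cycling cells, D-type cyclins with Cdk4 and Cdk6 release E2F factors from RB proteins, E2F targets load and fire replication origins, and a later wave of genes controlled through B-MYB and FoxM1 builds the mitotic spindle. Myocytes in a stressed heart can copy DNA without dividing, and endothelial cells, fibroblasts and blood cells of the heart do divide. In bulk libraries such as these, fewer cells of a type and less RNA per cell cannot be told apart.

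Filtering low counts left 31 of the 42 genes tested in set A and 32 in set B. Left out in set A were E2f2, Cdc6, Ccnb1, Ccnb2, Cdk1, Cdc25c, Cdca8, Aurka, Aurkb, Plk1 and Bub1, and left out in set B were E2f2, Cdc6, Ccnb1, Ccnb2, Cdc25c, Cdca8, Aurkb, Plk1, Bub1 and Birc5. In set B these 10 genes held at most 18 counts in any library. Even in library 489 the 11 genes untested in set A did not, with the exception of E2f2, exceed 96 counts. Of the 31 genes tested in set A, 25 reached the filter's level in at least 3 sham libraries. E2f1, Ccna2, Cdc20, Bub1b, Birc5 and Prc1 reached it in at most 2 of the 12 sham libraries and passed with the help of ACF libraries in which they were high. Counts and medians over the tested members of set A therefore partly follow from the filter and are given as descriptions.

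The first question was whether ACF changed these genes. None of the 31 tested members passed an adjusted p of 0.05 for the mean ACF effect over the 4 title groups, with library 489 (0.275% of all 13440 tested genes passed) or without it (0.923% of 13544 passed). The estimates depended strongly on that library. With it the median log2 fold change of the members was 0.47, and without it 0.08, while the median over all tested genes was 0.001 and -0.001. All 8 tested mitosis members had positive estimates in both fits, with a median of 1.41 with library 489 and 0.72 without it. For the 4 of them that reached the filter's level in at least 3 sham libraries (Mki67, Top2a, Kif11 and Kif20a) the medians were 1.17 and 0.59. The 10 tested replication members had medians of 0.19 and 0.04, and the 8 G1 cyclins and kinases had medians of -0.01 and -0.02.

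**Figure D1:**
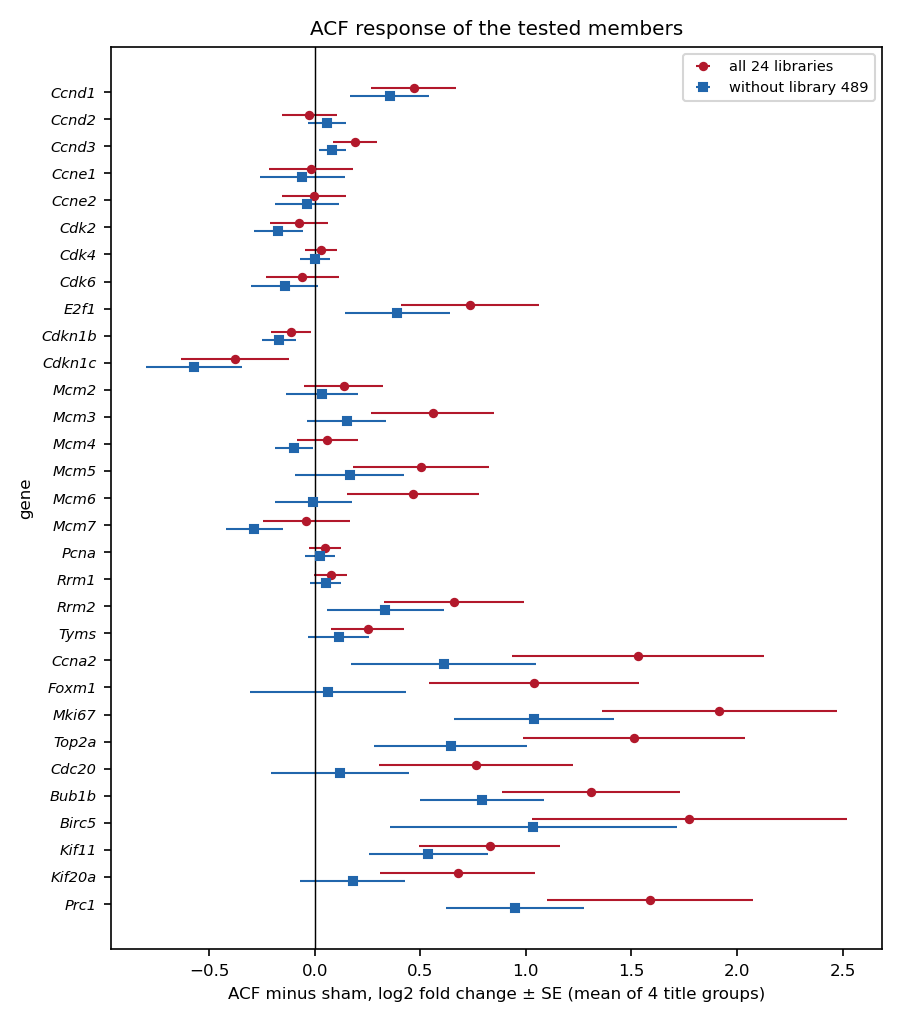
Mean ACF minus sham effect of the 31 tested members on the log2 scale (x axis), with its standard error, in all 24 libraries of set A (circles) and without library 489 (squares). The mitosis members at the bottom lie to the right of 0 in both fits and nearer to 0 without library 489, as for Mki67 at 1.92 and 1.04.

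Mki67 encodes the proliferation antigen Ki-67, which coats mitotic chromosomes. It measured 4.66, 3.87 and 21.2 CPM in C57_MNX ACF libraries and 1.72, 0.848 and 0.989 CPM in C57_MNX sham libraries. In C57_wt it measured 2.24, 51.0 and 0.945 CPM after ACF and 0.847, 2.13 and 2.62 CPM after sham. C3H_MNX had 0.474, 1.09 and 4.90 CPM after ACF and 1.07, 0.998 and 1.26 CPM after sham. The C57_MNX groups did not overlap, while in C57_wt and C3H_MNX a single ACF library was above all shams and the others were among or below them. C3H_wt had 1.99, 0.910 and 0.793 CPM after ACF and 1.25, 0.768 and 0.692 CPM after sham, with overlap. The mean effect of Mki67 was 1.92 ± 0.56 (log2, SE, adjusted p = 0.16), and 1.04 ± 0.38 without library 489 (adjusted p = 0.226). DESeq2's Wald test passed it with all libraries, as 1 of 244 genes, at 1.93 with an adjusted p of 0.0108.

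Other mitosis members had positive estimates too, each smaller without library 489. Top2a, the topoisomerase that untangles sister chromatids, had a mean effect of 1.51 ± 0.53, and 0.64 ± 0.36 without library 489. Prc1, which bundles the microtubules of the central spindle, had 1.59 ± 0.49, and 0.95 ± 0.33 without it. For Bub1b, a spindle checkpoint kinase, the values were 1.31 ± 0.42 and 0.79 ± 0.30. Adjusted p ranged from 0.187 for Prc1 to 0.498 for Top2a over these 6 fits, so none passed. Of the G2/M drivers, Ccna2 (cyclin A2) had 1.53 ± 0.60 and 0.61 ± 0.44, and Foxm1, the transcription factor of the mitotic wave, 1.04 ± 0.50 and 0.06 ± 0.37.

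Without both library 489 and library 6693, the mean effects were 0.74 ± 0.33 for Mki67, 0.91 ± 0.34 for Prc1, 0.71 ± 0.30 for Bub1b and 0.47 ± 0.35 for Top2a. Their adjusted p was 0.361, 0.248, 0.325 and 0.667, and no member passed. Leaving out those 2 libraries together was chosen after the values were seen.

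Library 489 alone had the highest value of the 24 libraries in 34 of the 42 genes. By role this held for all 13 mitosis members, all 6 G2/M drivers, both E2F genes, 9 of 11 replication members, 4 of 8 G1 cyclins and kinases and neither inhibitor. Among tested genes it was the highest in 23 of 31 members, against 30.4% of all tested genes. Library 6693 ranked first or second in 29 of the 42 genes, and in 18 of the 31 tested ones, against 4.17% of all tested genes. E2f2, an activator of S phase entry also known from studies of mouse red cell precursors, had 101.8 CPM (1659 counts) in library 489. Its next value was 3.33 CPM (45 counts) in library 6693, and the other 22 libraries had 0 to 0.394 CPM (at most 6 counts). The 13 mitosis members together summed to 108.8 CPM in library 489, to 40.5 CPM in library 6693, to 3.32 to 13.5 CPM in the other 10 ACF libraries and to 3.18 to 8.72 CPM in the 12 sham libraries.

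**Figure D2:**
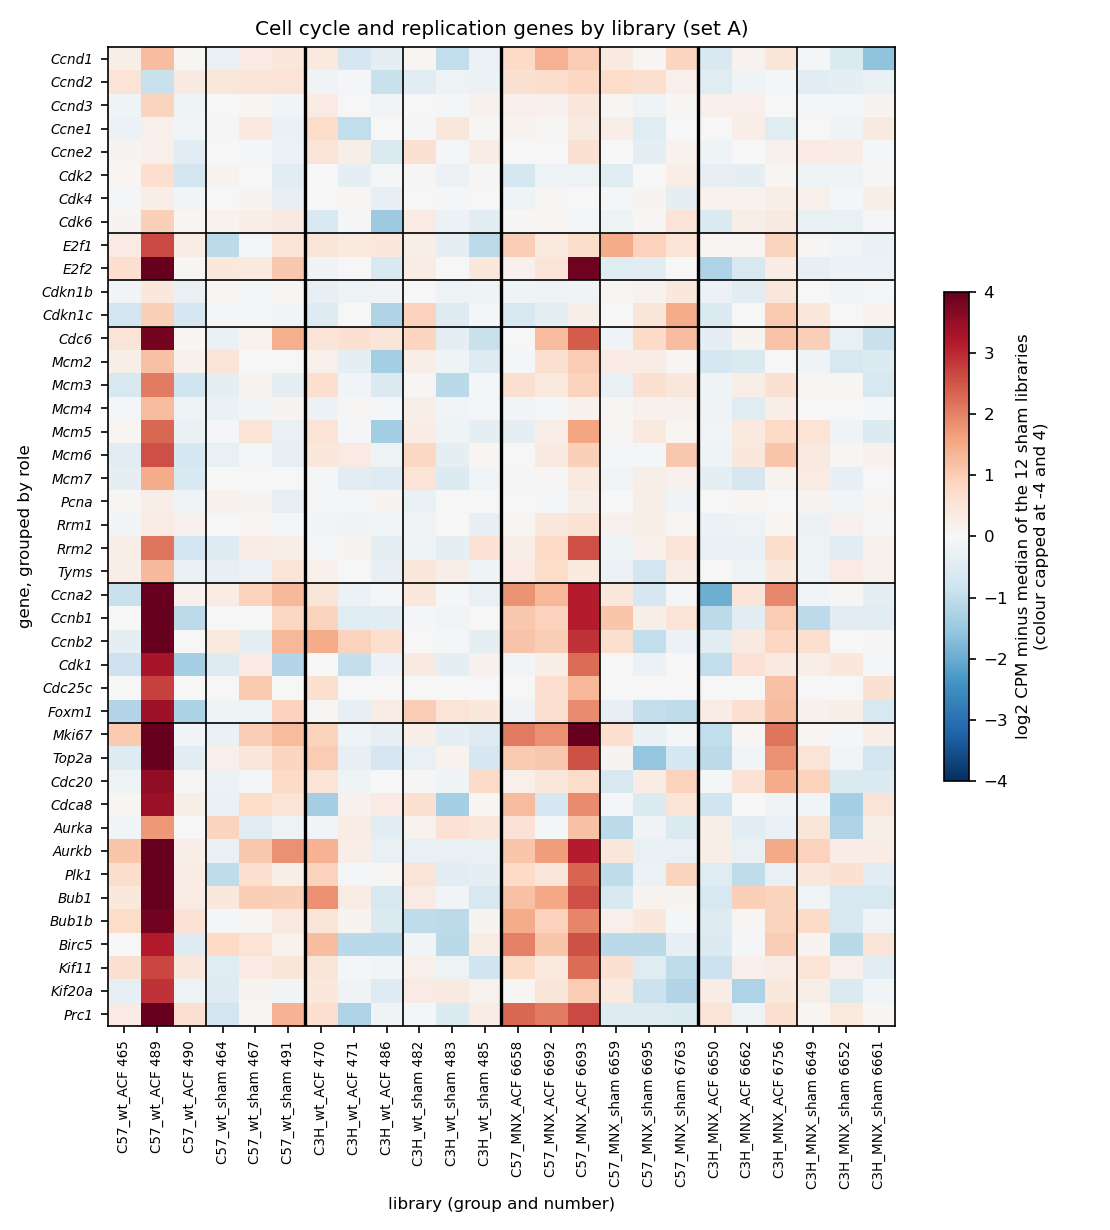
Each row is a gene and each column a library of set A, coloured by log2 CPM minus the median of the 12 sham libraries (red higher, blue lower). Library 489 is the dark red column in the E2F, replication, G2/M and mitosis rows, library 6693 is the second darkest, and Ccnd2 is the row where library 489 is lowest.

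Ccnd2 encodes cyclin D2, a G1 cyclin that cardiomyocytes express. It went the other way, with 28.7 CPM in library 489, the lowest of all 24, against 78.1 and 68.8 CPM in the other C57_wt ACF libraries and 73.1, 74.7 and 78.4 CPM in C57_wt sham libraries. Among replication members, Mcm6 of the MCM helicase had 18.0 CPM in library 489 and at most 6.38 CPM elsewhere. Pcna, the sliding clamp of DNA polymerases, had 17.2 CPM in library 489 and 17.2 CPM in library 6693, with 16.8 CPM as the next highest value. Rrm2, the regulated subunit of ribonucleotide reductase, had 3.87 CPM in library 489, 5.25 CPM in library 6693 and at most 1.45 CPM elsewhere.

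Most marker lists of other cell types were also at an extreme in library 489. In library 489 all 7 measured erythrocyte genes were above 0, Hba-a2 (alpha globin) was at 55460 CPM and Alas2 (heme synthesis) at 3583 CPM, while the cardiomyocyte gene Myh6 was at 4380 CPM. Its 8 measured neutrophil genes summed to 102.9 CPM and those of library 6693 to 97.8 CPM, against 1.10 to 5.93 CPM in the other 22 libraries. The 5 neutrophil precursor genes summed to 4.91 CPM in library 489 and 44.5 CPM in library 6693, against 0 to 1.66 CPM elsewhere. Library 489 was also the highest of the 24 for the summed endothelial (1744 CPM), fibroblast (2129 CPM), macrophage (528.9 CPM) and lymphocyte (11.8 CPM) markers, and the lowest for pericyte and smooth muscle markers (219.4 CPM). Of the 6 erythroid precursor genes, Gata1 was at 2.70 CPM in library 489 and 1.63 CPM in library 6693, against at most 0.0707 CPM in the other 22. Rhag, Hemgn and Klf1 were likewise higher in both libraries than in any other, with Klf1 at only 0.614 CPM in library 489 and 0.666 CPM in library 6693. Tal1 was at 15.5 CPM in library 489, but its 4.585 CPM in library 6693 lay within the 0.992 to 4.77 CPM of the other 22. The sum of the 6 genes was the lowest of 24 in library 489 (62.6 CPM) because Tfrc, the transferrin receptor, makes up most of it, at 38.2 CPM in library 489 and 74.0 to 459.6 CPM in the other 22. The part of these cells in the values of the cell cycle genes was not tested.

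**Figure D3:**
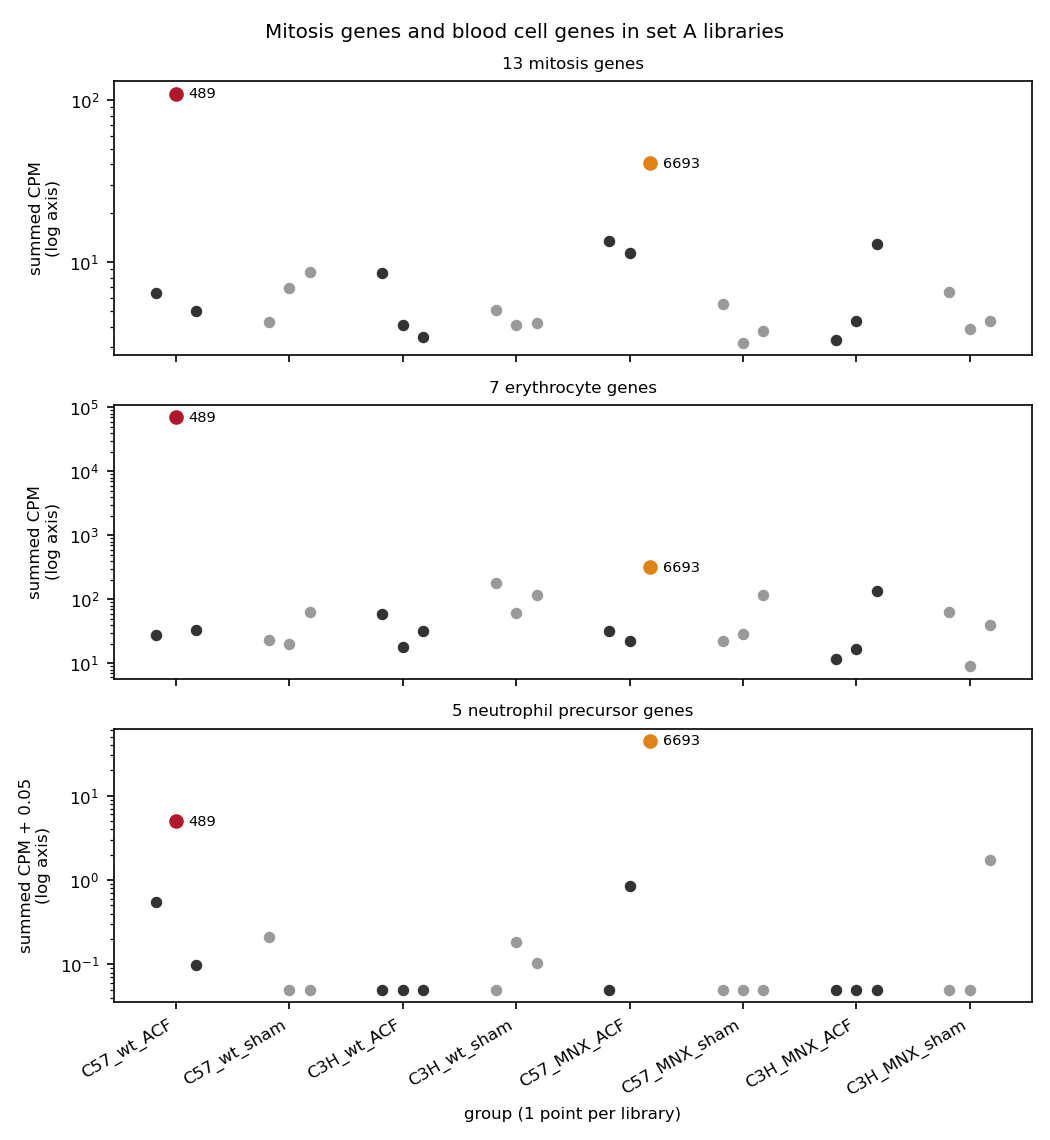
Summed CPM of the 13 mitosis members (top), 7 erythrocyte genes (middle) and 5 neutrophil precursor genes (bottom, plus 0.05) on log axes, 1 point per library of set A, ACF left of its sham. Library 489 is highest in the top and middle panels, at 108.8 and 69620 CPM, and library 6693 is highest in the bottom panel, at 44.5 CPM.

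In C57_wt the direction of the ACF effect turned on library 489. With it, 29 of 31 members had positive estimates with a median of 0.59, and 0 members passed, as did 0% of all tested genes. Without it, 24 of 31 had negative estimates with a median of -0.155, and 0 members passed against 0.00738% of all tested genes. Mki67 had 3.27 with the library and -0.22 without it, Top2a had 2.35 and -1.10, and Foxm1 had 1.804 and -2.09. Bub1b kept its sign, at 2.71 and 0.67, and was the only tested member whose 3 ACF libraries (0.547, 5.46 and 0.473 CPM) were all above the shams (0.265, 0.312 and 0.394 CPM), as were 4.11% of all tested genes. No tested member had all ACF libraries below the shams, as did 3.03% of all tested genes. With library 489 kept and library 465 or 490 left out, E2f1, Mki67, Bub1b and Prc1 passed in both fits. Their adjusted p lay between 0.0241 and 0.0489. Without library 465, 874 genes passed in C57_wt, 8 of them members. The count over all genes without library 490 is not given here, so whether the member calls are unusual there cannot be told. Each of these fits rests on library 489 and a single other ACF library. E2f1, Bub1b and Prc1 also passed the filter with the help of ACF libraries in which they were high.

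C57_MNX had the most members without overlap of the 4 title groups. In 9 of 31 tested members all 3 ACF libraries were above all 3 shams, against 4.62% of all tested genes: Ccnd3, Tyms, Ccna2, Foxm1, Mki67, Top2a, Bub1b, Birc5 and Prc1. Ccna2, Bub1b, Birc5 and Prc1 are among the genes that passed the filter through ACF libraries. Of the 25 members at the filter's level in at least 3 sham libraries, Ccnd3, Tyms, Foxm1, Mki67 and Top2a were separated, which is 5 of 25 against 4.44% of all genes at that level. Among the untested members E2f2, Ccnb2, Aurka, Aurkb and Bub1 were separated in the same way, on a few counts each outside library 6693. The share over all untested genes was not computed, so whether this number is unusual cannot be told. Prc1 measured 1.55, 1.33 and 2.00 CPM after ACF (19, 23 and 27 counts) and 0.137, 0.141 and 0.132 CPM after sham (2 counts each). Birc5, the survivin subunit of the chromosomal passenger complex, had 9, 6 and 15 counts after ACF and 0, 0 and 1 counts after sham. Foxm1 had 4, 11 and 22 counts after ACF and 4, 2 and 2 counts after sham. Its lowest ACF and highest sham library thus held equal counts and differed only by library size (0.327 and 0.2745 CPM). Top2a measured 1.799, 1.85 and 5.25 CPM after ACF and 0.892, 0.212 and 0.462 CPM after sham. Tyms, which makes thymidylate for DNA synthesis, measured 4.25, 5.66 and 4.44 CPM after ACF and 2.81, 1.91 and 4.16 CPM after sham. Cdkn1b, the inhibitor p27, was the only member lower in all ACF libraries, as were 3.87% of all tested genes, with 15.0, 14.9 and 15.3 CPM after ACF and 17.5, 18.7 and 22.7 CPM after sham.

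None of these passed the test within C57_MNX, where 0% of all tested genes passed with library 489 in the fit and 0% without it. The median estimate of the 8 mitosis members was 2.05, with 3.06 for Mki67 and 3.51 for Prc1 (adjusted p of 1 for both). Neutrophil and neutrophil precursor sums of the other ACF libraries of C57_MNX were below those of library 6693. Libraries 6658 and 6692 had neutrophil sums of 1.47 and 3.41 CPM, against 1.92, 2.47 and 3.17 CPM in the shams, and neutrophil precursor sums of 0 and 0.809 CPM, against 0 CPM in the shams. Both sums of library 6692 were above those of every sham. Its Klf1 was at 0.116 CPM, against 0 CPM in library 6658 and in the shams. The mitosis sums of libraries 6658 and 6692 were 13.5 and 11.4 CPM, against 5.49, 3.18 and 3.76 CPM in the shams. Without library 6693 the estimates in C57_MNX were 1.85 for Mki67, 3.34 for Prc1, 1.797 for Top2a and 1.91 for Ccna2, with an adjusted p of 1 for each. Endothelial markers summed to 780.3 and 945.5 CPM in libraries 6658 and 6692 and 824.9, 643.1 and 1636 CPM in the shams, so those ranges overlapped. The part of blood and endothelial cells in the mitosis values was not tested.

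In C3H_wt the members' median estimate was -0.06 with library 489 in the fit and -0.07 without it, and 0 members passed in either fit, against 0% and 0.509% of all tested genes. E2f1 was above the shams in all ACF libraries (0.497, 0.455 and 0.476 CPM after ACF, 0.417, 0.226 and 0.106 CPM after sham), as were 12.9% of all tested genes. Foxm1 was below them (0.386, 0.273 and 0.476 CPM after ACF, 0.833, 0.588 and 0.532 CPM after sham), as were 10.4% of all tested genes. The untested Ccnb2 was above the shams in all ACF libraries of C3H_wt (8, 6 and 4 counts after ACF, 2, 2 and 1 counts after sham). In C3H_MNX the median estimate was 0.12 in both fits and 0 members passed, against 0.00744% and 0.00738% of all tested genes. There E2f1 and Foxm1 were above the shams in all ACF libraries, against 5.1% of all tested genes, and no member was below, against 4.58%. Foxm1 measured 0.474, 0.644 and 0.991 CPM after ACF and 0.427, 0.449 and 0.201 CPM after sham. E2f1 held 8, 7 and 11 counts after ACF and 8, 6 and 5 counts after sham in C3H_MNX. In C3H_wt E2f1 held 9, 10 and 9 counts after ACF and 9, 5 and 2 counts after sham. These separations rest on few counts, and E2f1 passed the filter with the help of ACF libraries. Library 6756 of C3H_MNX ACF had the highest values of its group for Mki67 (4.90 CPM), Top2a (3.16 CPM) and Ccna2 (1.36 CPM), together with 1122 CPM of fibroblast and 1506 CPM of endothelial markers against at most 358.2 and 695.6 CPM in its fellow ACF libraries. The part of those cells was not tested.

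The differences between ACF responses were tested directly. No member passed for the C3H titles minus the C57 titles, for C3H_MNX minus C3H_wt or for C57_MNX minus C57_wt, and neither did any other gene (0% in each). At an unadjusted p below 0.05 there were 429, 398 and 774 genes, and DESeq2 passed 2, 1 and 0. The difference for Prc1 between C3H and C57 titles was -2.93 ± 0.98 and that for Mki67 -2.50 ± 1.11, with an adjusted p of 1 for both. Without library 489 they were -1.68 ± 0.65 and -0.77 ± 0.76 (adjusted p = 0.841 and 0.909). The C57_MNX minus C57_wt difference of Mki67 was -0.22 ± 1.52 with library 489 and 3.28 ± 1.09 without it, with adjusted p of 0.96 and 1. The single title groups have their own counts at an unadjusted p below 0.05, which were 2030 in C57_wt, 951 in C3H_wt, 230 in C3H_MNX and 274 in C57_MNX, and DESeq2 passed 175, 82, 3 and 1 genes.

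The G1 cyclins and kinases act first in the cycle, and none passed. Ccnd1 (cyclin D1) had a mean effect of 0.47 ± 0.20, and 0.36 ± 0.19 without library 489, with adjusted p of 0.387 and 0.457. Cdk4 had 0.03 ± 0.08 and 0.00 ± 0.07, and Ccnd2 had -0.03 ± 0.13 and 0.06 ± 0.09. The inhibitors had negative estimates, at -0.17 ± 0.08 for Cdkn1b and -0.57 ± 0.23 for Cdkn1c (p57) without library 489, with adjusted p of 0.387 and 0.27. Cdkn1b passed, as 1 of 344 genes, when libraries 489 and 6756 were both left out, at -0.24 with an adjusted p of 0.0253. Those are the ACF libraries with the highest Cdkn1b (22.9 and 23.2 CPM) and the highest endothelial sums (1744 and 1506 CPM), while sham library 6763, with 22.7 CPM of Cdkn1b and an endothelial sum of 1636 CPM, stayed in that fit. Of the replication members, Mcm7 had -0.29 ± 0.14 and Rrm2 0.33 ± 0.28 without library 489, and neither passed.

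Among other cell cycle genes, of which 36 of replication, 25 of mitosis and 22 of the RB and inhibitor network were tested, Cdkn1a was the only one that passed for the mean ACF effect. It encodes p21, an inhibitor of cyclin-dependent kinases induced by p53. Its mean effect was 1.33 ± 0.27 (adjusted p = 0.0439), and 1.24 ± 0.27 without library 489 (adjusted p = 0.0326). In C3H_wt it rose by 3.16 ± 0.54 without library 489 (adjusted p = 0.0222). There it measured 29.97, 35.91 and 119.4 CPM after ACF and 5.925, 7.457 and 7.128 CPM after sham. C57_wt had 8.919, 20.92 and 13.23 CPM after ACF and 4.025, 7.381 and 5.902 CPM after sham, without overlap. The exchange groups overlapped. C57_MNX had 13.82, 7.456 and 5.694 CPM after ACF and 8.372, 6.219 and 6.991 CPM after sham. C3H_MNX had 37.17, 24.19 and 9.356 CPM after ACF and 8.879, 12.43 and 28 CPM after sham. The 25 other mitosis genes had a median of 0.61 with library 489 and 0.23 without it, and the 36 other replication genes 0.03 and 0.00.

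Since all 13 mitosis members were highest in library 489 and 12 of them ranked first or second in library 6693, promoters are shown. The exception was Cdc20, at rank 7 in library 6693. Promoters are given as 300 bases from 250 before to 50 after the start (RefSeq, GRCm38.p6, 32 of 42 members matched). Motifs were searched on both strands and are in capitals: the cell cycle homology region CHR (TTTGAA or TTCGAA), the CCAAT box, and E2F sites (TTTGGCGC, TTTCCCGC, TTTGCCGC or TTTCGCGC). In Mki67, the gene with the largest mean estimate, at chr7:135716330-135716629 on the minus strand, there are 2 CHR and 3 CCAAT matches.

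Mki67: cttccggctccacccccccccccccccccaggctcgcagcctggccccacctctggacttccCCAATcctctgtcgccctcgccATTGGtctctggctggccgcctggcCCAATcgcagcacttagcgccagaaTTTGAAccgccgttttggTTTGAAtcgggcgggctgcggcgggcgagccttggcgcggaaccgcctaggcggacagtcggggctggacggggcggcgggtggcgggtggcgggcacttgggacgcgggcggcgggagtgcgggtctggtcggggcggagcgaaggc

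In Plk1, a kinase of mitotic entry, at chr7:122159185-122159484 on the plus strand, the CCAAT match at bases 237 to 241 lies upstream of the CHR match at 281 to 286. Ccnb2 (cyclin B2), at chr9:70421505-70421804 on the minus strand, has 3 CCAAT boxes between its 2 CHR matches.

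Plk1: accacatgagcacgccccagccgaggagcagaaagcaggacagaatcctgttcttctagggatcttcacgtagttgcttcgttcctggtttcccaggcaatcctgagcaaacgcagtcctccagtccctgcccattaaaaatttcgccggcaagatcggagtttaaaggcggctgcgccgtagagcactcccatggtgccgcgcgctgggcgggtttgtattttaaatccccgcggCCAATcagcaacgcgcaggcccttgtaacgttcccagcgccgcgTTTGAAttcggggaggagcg

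Ccnb2: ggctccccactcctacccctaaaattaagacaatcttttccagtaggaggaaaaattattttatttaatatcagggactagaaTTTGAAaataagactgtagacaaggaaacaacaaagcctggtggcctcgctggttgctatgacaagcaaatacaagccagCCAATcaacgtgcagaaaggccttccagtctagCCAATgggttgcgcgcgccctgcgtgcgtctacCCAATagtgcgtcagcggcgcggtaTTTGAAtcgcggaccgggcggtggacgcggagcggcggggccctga

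Mcm6 stands for the replication members, at chr1:128359656-128359955 on the minus strand. It holds 3 E2F matches, of which 2 overlap at bases 141 to 152, and 2 CCAAT boxes.

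Mcm6: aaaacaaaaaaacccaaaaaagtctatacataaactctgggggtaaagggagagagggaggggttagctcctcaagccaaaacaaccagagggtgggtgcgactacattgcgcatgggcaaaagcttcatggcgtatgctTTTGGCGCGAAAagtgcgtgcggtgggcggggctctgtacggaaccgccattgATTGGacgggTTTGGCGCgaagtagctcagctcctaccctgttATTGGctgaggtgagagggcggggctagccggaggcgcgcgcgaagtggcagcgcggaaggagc

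E2f2, the member that differed most between library 489 and the rest, has 2 listed starts on the plus strand, at chr4:136172024-136172323 with an E2F match and a CCAAT box, and at chr4:136180532-136180831 with a CHR match and 3 CCAAT boxes. They are given in that order.

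E2f2, first start: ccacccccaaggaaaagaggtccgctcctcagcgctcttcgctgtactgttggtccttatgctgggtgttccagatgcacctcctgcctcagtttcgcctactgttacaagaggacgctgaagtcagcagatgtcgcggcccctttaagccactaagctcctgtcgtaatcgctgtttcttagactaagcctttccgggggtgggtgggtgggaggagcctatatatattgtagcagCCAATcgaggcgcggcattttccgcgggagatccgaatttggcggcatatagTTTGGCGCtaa

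E2f2, second start: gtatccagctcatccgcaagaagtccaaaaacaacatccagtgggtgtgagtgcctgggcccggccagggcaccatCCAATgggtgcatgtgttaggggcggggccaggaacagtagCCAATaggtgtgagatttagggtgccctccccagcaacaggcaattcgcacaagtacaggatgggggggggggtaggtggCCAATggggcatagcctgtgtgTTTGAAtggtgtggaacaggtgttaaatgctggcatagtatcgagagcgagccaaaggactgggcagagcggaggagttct

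A CHR match was found in 10 of the 11 matched mitosis members and in 2 of 10 replication members, against 19.2% of all 32851 promoters. An E2F match was found in 5 of 10 replication members and in 0 of 11 mitosis members, against 2.26% of all promoters. The CCAAT box was found in 25 of 32 members, against 37.4% of all promoters. A member was counted if any of its listed starts held the motif, while the shares over all promoters count each start singly. A match describes letters only and is not evidence that a factor binds there.

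The second question was how the genes differ at baseline by nucleus and by mitochondria, in the 24 sham libraries of set B. Between C3H and C57 nuclei 9 of 32 tested members passed, against 35.7% of all genes, so a call in this comparison does not set the members apart. The members were 3 higher on the C3H nucleus (18.9% of all genes) and 6 lower (16.8% of all genes). Lower were the G1 cyclins Ccnd1 and Ccnd2, the helicase subunits Mcm2, Mcm3 and Mcm7, and Rrm1, the large subunit of ribonucleotide reductase. Higher were Tyms, Foxm1 and Kif20a, a kinesin of cytokinesis.

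**Figure D4:**
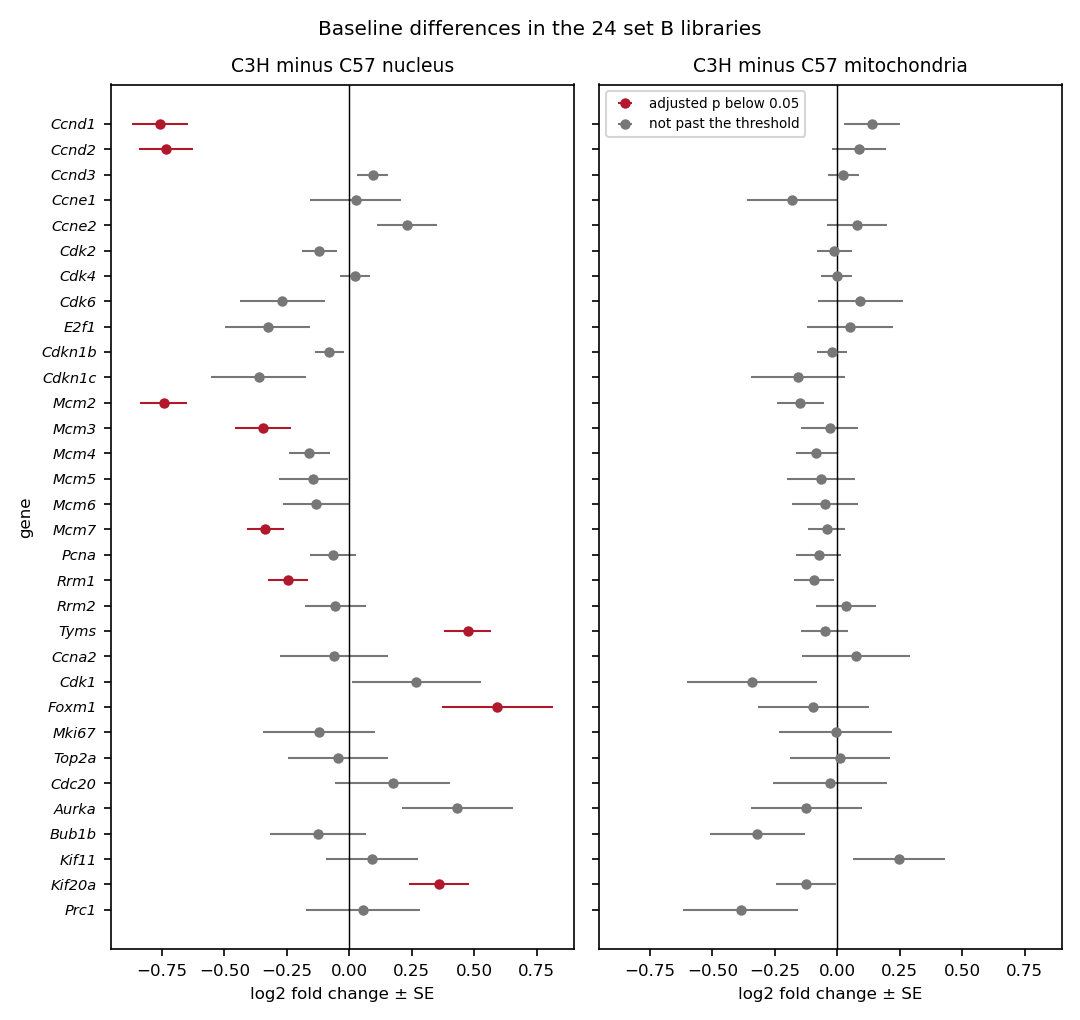
Log2 fold change with standard error of the 32 tested members in set B, C3H minus C57 nucleus (left) and C3H minus C57 mitochondria (right). On the left 9 members are past the threshold, from -0.76 for Ccnd1 to 0.59 for Foxm1, and on the right none is.

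Ccnd1 had a low, median and high value of 22.6, 30.4 and 41.2 CPM in C3Hn:C3Hmt and 17.8, 20.6 and 26.7 CPM in C3Hn:C57mt. On the C57 nucleus it had 31.8, 35.02 and 56.1 CPM in C57n:C3Hmt and 32.9, 49.0 and 56.8 CPM in C57n:C57mt. In 10 of the 12 C3Hn libraries it was below every C57n library, and the difference was -0.76 ± 0.11 (adjusted p = 5.39e-06). Ccnd2 had 39.9, 49.3 and 53.9 CPM in C3Hn:C3Hmt and 46.9, 51.0 and 65.7 CPM in C3Hn:C57mt, against 84.9, 95.8 and 100.8 CPM in C57n:C3Hmt and 38.6, 82.3 and 105.1 CPM in C57n:C57mt. The difference was -0.73 ± 0.11 (adjusted p = 5.51e-06), and 10 of the 12 C57n libraries were above every C3Hn library. Ccnd3, the third D-type cyclin, differed by 0.09 ± 0.06 (adjusted p = 0.264), so the D-type cyclins did not all go one way.

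Mcm2 showed the least overlap of the helicase genes. It had 2.34, 2.81 and 3.25 CPM in C3Hn:C3Hmt and 2.65, 3.24 and 3.63 CPM in C3Hn:C57mt, against 4.13, 4.68 and 5.53 CPM in C57n:C3Hmt and 3.40, 5.26 and 6.17 CPM in C57n:C57mt. A single C57n library lay within the range of the C3H nucleus, and the difference was -0.74 ± 0.09 (adjusted p = 4.46e-07). Mcm7 differed by -0.34 ± 0.07 (adjusted p = 0.000783) and Mcm3 by -0.35 ± 0.11 (adjusted p = 0.0183). The other helicase subunits Mcm4, Mcm5 and Mcm6 had estimates of -0.16, -0.14 and -0.13 that did not pass. Rrm1 differed by -0.24 ± 0.08 (adjusted p = 0.0192), and its partner Rrm2 by -0.06 ± 0.12 (adjusted p = 0.76).

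Tyms was higher on the C3H nucleus, with 2.36, 3.27 and 3.62 CPM in C3Hn:C3Hmt and 2.78, 3.24 and 3.45 CPM in C3Hn:C57mt, against 1.804, 2.27 and 2.56 CPM in C57n:C3Hmt and 1.94, 2.24 and 3.26 CPM in C57n:C57mt. Its difference was 0.47 ± 0.10 (adjusted p = 0.000281). Kif20a differed by 0.36 ± 0.12 (adjusted p = 0.0208). Foxm1 differed by 0.59 ± 0.22 (adjusted p = 0.0402) and missed the threshold in 15 of the 24 fits that left out 1 library. The other 7 tested mitosis members did not pass: Mki67 had -0.12 ± 0.22 and Top2a -0.05 ± 0.20.

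**Figure D5:**
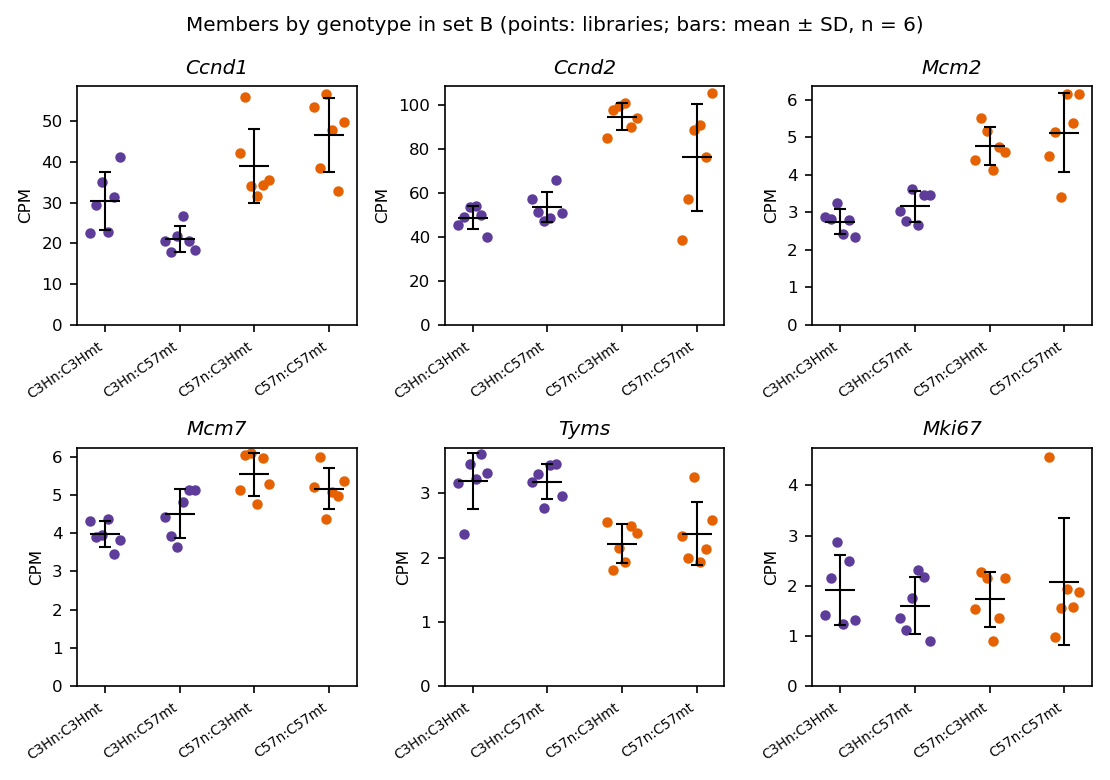
CPM of 6 members in set B, 1 point per library, with mean and SD (n = 6), C3H nuclei left of C57 nuclei. Ccnd1, Ccnd2, Mcm2 and Mcm7 lie lower and Tyms higher on the C3H nucleus, while the Mki67 groups overlap between 0.889 and 4.57 CPM.

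The titles carry an L code of unstated meaning that differed between these groups: all C57n:C57mt libraries carry L8 and all C3Hn:C3Hmt libraries L3. With the code as a covariate 5 of 32 members passed, against 10.4% of all genes. Ccnd2 (-0.91), Mcm2 (-0.82) and Mcm7 (-0.52) remained among them, Ccnd3 and Cdk6 joined, and Ccnd1 had -0.28 with an adjusted p of 0.493. The calls of Tyms, Kif20a, Mcm3, Rrm1 and Foxm1 were lost as well. Within code L2, which holds 4 C3Hn:C57mt and 4 C57n:C3Hmt libraries, Ccnd1 was at 17.8 to 26.7 CPM in C3Hn:C57mt and 31.8 to 35.6 CPM in C57n:C3Hmt. Ccnd2 was at 46.9 to 57.2 CPM in C3Hn:C57mt and 89.9 to 100.8 CPM in C57n:C3Hmt. Mcm2 was at 2.65 to 3.63 CPM in C3Hn:C57mt and 4.13 to 5.18 CPM in C57n:C3Hmt. Tyms was at 2.78 to 3.44 CPM in C3Hn:C57mt and 1.94 to 2.49 CPM in C57n:C3Hmt. Kif20a was at 1.31 to 1.55 CPM in C3Hn:C57mt and 0.994 to 1.28 CPM in C57n:C3Hmt. These 5 of the 9 genes did not overlap within the code, while Mcm3, Mcm7, Rrm1 and Foxm1 did. Nucleus and mitochondria differ together between these L2 groups, so their parts cannot be told apart there. Over all tested members 7 of 32 did not overlap, against 31.3% of all genes.

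Markers of other cell types were also summed by nucleus in set B. The fibroblast sum had a median of 296.5 CPM on the C3H nucleus and 313.4 CPM on the C57 nucleus, the endothelial sum 507.7 CPM on the C3H and 573.1 CPM on the C57 nucleus, and the macrophage sum 82.9 CPM on the C3H and 93.4 CPM on the C57 nucleus. The erythroid precursor sum had medians of 196.7 CPM on the C3H and 74.4 CPM on the C57 nucleus, nearly all of it Tfrc (195.1 CPM on the C3H and 71.6 CPM on the C57 nucleus), while Gata1, Rhag and Hemgn had medians of 0 CPM on both. Their part in the baseline differences was not tested.

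Mitochondrial background made no difference that passed. For C3H minus C57 mitochondria 0 of 32 members passed, as did 0% of all genes, with 549 genes at an unadjusted p below 0.05 and 1 gene by DESeq2. The member estimates nearest to a change were -0.39 ± 0.23 for Prc1, -0.34 ± 0.26 for Cdk1 and -0.32 ± 0.19 for Bub1b (adjusted p = 0.914 for each). The test of whether the mitochondrial difference depends on the nucleus passed 0 members and 0% of all genes, with 2188 genes at an unadjusted p below 0.05 and 331 by DESeq2. Ccnd1 was the member nearest to the threshold in that test, at 0.80 ± 0.22 (adjusted p = 0.0982), and DESeq2 passed it (adjusted p = 0.0396). Its mean was 30.5 ± 7.2 CPM in C3Hn:C3Hmt and 21.0 ± 3.2 CPM in C3Hn:C57mt, while on the C57 nucleus it was 39.0 ± 9.1 CPM with C3H and 46.7 ± 9.1 CPM with C57 mitochondria (SD, n = 6 each). Within code L8 the Ccnd1 medians were alike, at 49.12 CPM in 2 C57n:C3Hmt and 48.97 CPM in 6 C57n:C57mt libraries. The 4 C57n:C3Hmt libraries of code L2 had a median of 34.25 CPM. Within code L3 Ccnd1 was at 22.62 to 41.17 CPM in 6 C3Hn:C3Hmt and 18.25 to 20.6 CPM in 2 C3Hn:C57mt libraries. With the code as a covariate 0 members passed the interaction test. Without library 5 of C57n:C57mt, 422 genes passed that test, among them Ccnd1 (0.88) and Mcm3 (0.84, adjusted p = 0.0292 for both).

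The wild-type strains, C3Hn:C3Hmt minus C57n:C57mt in set B, differed in 6 of 32 members, against 22.6% of all genes. Ccnd1, Ccnd2, Mcm2, Mcm7 and Rrm1 were lower (10.7% of all genes) and Tyms was higher (12% of all genes). The Rrm1 call was lost in 5 of the 24 fits that left out 1 library, and the Tyms call in 2, without library 2 or 4 of C57n:C57mt. Mcm2 had the lowest estimate, -0.89 ± 0.13 (adjusted p = 1.05e-05). The L code separates these 2 groups fully, so strain and code cannot be told apart within them. In set A, C3H_wt sham minus C57_wt sham passed 0 members, against 3.76% of all genes, and 1 member without library 489, Ccnd2, against 6.49%. Ccnd2 measured 39.8, 46.0 and 45.5 CPM in C3H_wt sham and 73.1, 74.7 and 78.4 CPM in C57_wt sham, with estimates of -0.78 ± 0.26 (adjusted p = 0.141) and, without library 489, -0.75 ± 0.17 (adjusted p = 0.00792).

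By title over all of set A, Ccnd2 had 28.9 to 51.3 CPM in the 12 C3H libraries and 62.3 to 96.1 CPM in 11 of the 12 C57 libraries, which did not overlap, with library 489 the exception. The share of all tested genes separated in this way was not computed, so whether Ccnd2 is unusual cannot be told. Mcm2 had 0.846 to 2.78 CPM in C3H titles and 2.21 to 4.73 CPM in C57 titles without library 489. In sham libraries alone, Tyms had a low, median and high value of 2.90, 3.92 and 4.58 CPM in the 6 C3H libraries and 1.91, 2.84 and 4.79 CPM in the 6 C57 libraries, which overlapped. CPM of the 2 sets were scaled separately and are not compared between them.

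The other cell cycle lists were called about as often by nucleus as all genes, of which 18.9% were higher and 16.8% lower on the C3H nucleus. Of 38 other replication genes, 2 were higher and 9 lower on the C3H nucleus, of 24 other mitosis genes 5 were higher and 2 lower, and of 23 genes of the RB and inhibitor network 7 were higher and 2 lower. Pttg1, the separase inhibitor securin, differed by -4.51 ± 0.12 (adjusted p = 2.82e-20), and by -4.78 ± 0.30 between wild-type sham libraries of set A (adjusted p = 3.65e-09). Pkmyt1, a kinase that restrains Cdk1, differed by -1.42 ± 0.22, and Pole, the leading strand polymerase, by -0.76 ± 0.13. Higher were Ube2c, which works with the anaphase promoting complex, at 1.31 ± 0.24, the checkpoint kinase Chek2 at 0.95 ± 0.18 and the Cdk4 and Cdk6 inhibitor Cdkn2b at 0.78 ± 0.27.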

How the data were processed

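Messenger RNA of isolated mouse cardiomyocytes was sequenced in 48 libraries. Per the labels' protocols, a strand-preserving mRNA kit was used and the sequencing company mapped the reads with an algorithm of its own. The submitters' processing notes list RSEM 1.2.0, Bowtie, CASAVA 1.8.2 and the build mm9, and which steps made the table is not settled. The values the authors deposited are expected counts, 1 row for each gene symbol and without normalization, and 13.9% of them were not whole. Every column belongs to a sample of the series, and every row names a gene. RSEM divides reads between similar genes, so values of close paralogs are uncertain.

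The counts were rounded and tested in R 4.3.3 with edgeR 4.0.16: TMM scaling, edgeR's filter on low counts (minimum 10), the quasi-likelihood F test and Benjamini-Hochberg adjustment over all tested genes at 0.05. Set A (24 libraries, 8 groups) and set B (24 libraries, 4 genotypes) were each fitted in 1 model of group means. Each SE was obtained as the absolute log2 fold change over the root of its F statistic. CPM use the TMM library sizes, and log2 CPM has a prior count of 2. Alternatives were a DESeq2 1.42.0 Wald test, edgeR with size factors from DESeq2, an unfiltered table, the L code as a covariate, fits of other sets of libraries and leaving out each library. The test was checked on simulated data. The 42 genes, the other cell cycle lists and the markers were chosen with earlier results of these data known. All 42 genes are named, and from the other cell cycle lists the genes with the greatest change among those that passed, at most 3 each way.

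No replicate number occurs in more than 1 group, so samples were not paired. Libraries of a group differed by more than counting noise in every pair (chi-square over its degrees of freedom at least 3.858). The labels give numbers but do not state separate animals, and p-values therefore reflect only how much the libraries of a group vary, which may be technical. The promoter table is of another build than the counts and was used only for sequences and their positions in that build.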

Additional observations from a re-analysis of the deposited data

Results flagged for a closer look

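In groups of 6 libraries in set B, 9 values lay far from the other 5 of their group, by the gap to the nearest value as a share of the range (above 0.625), of 168 gene and group combinations tested, and chance gives about 5% of them. On the log2 CPM scale these were Cdk4 (4.77) and Cdk6 (-0.58) in library 24 of C3H_WT, Tyms (1.3) in library 20 of C3H_WT, Cdkn1b (4.735) in library 18 and Mcm3 (0.723) in library 13 of C3Hn-C57mt, Rrm2 (0.162) in library 3 of C57_WT, and Cdk4 (4.756) and Bub1b (-2.033) in library 7 and Cdk1 (-0.042) in library 8 of C57n-C3Hmt. The groups C3H_WT and C57_WT are those labelled C3Hn:C3Hmt and C57n:C57mt.

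Foxm1 was higher in every ACF library than in every sham library of C3H_MNX and lower in every one of C3H_wt, and the ACF effects differed by 1.464 on the log2 scale. It was likewise higher in C57_MNX, where the effects differed by 2.226 from those of C3H_wt. The lowest ACF library and the highest sham library of C57_MNX both held 4 Foxm1 counts. The difference was not tested between C57_MNX and C3H_wt alone, and for C3H_MNX minus C3H_wt the test gave 1.72 ± 1.36 with an adjusted p of 0.96.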

How the results depend on the processing

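Leaving out each library in turn, the ACF mean effect passed 12 (without library 467) to 174 genes (without library 465) and 0 members. The range was 0 to 874 genes and 0 to 8 members in C57_wt, with the highest count without library 465, 0 to 69 genes in C3H_wt, and 0 to 1 in C3H_MNX. It was 0 to 1 gene for C3H minus C57 titles, 325 (without library 467) to 879 genes (without library 489) and 0 to 1 members for the set A strain difference, 0 to 1 gene for mitochondria, and 0 to 422 genes and 0 to 2 members for the interaction, the most without library 5 of C57_WT. In C57_wt a fit without 1 of 3 ACF libraries rests on 2. DESeq2 passed 244 genes and 1 member for the ACF mean, 175 in C57_wt, 82 in C3H_wt, 3 in C3H_MNX, 1 in C57_MNX, 2, 1 and 0 for the response differences, 1 for mitochondria, and 331 genes and 1 member for the interaction. Without the filter 1 gene passed for C3H minus C57 titles. With the L code as a covariate 0 genes passed in C3H_MNX, 279 for the set A strain difference, 1399 genes and 5 members for nucleus, 3 genes for mitochondria, 2 for the interaction, and 578 genes and 1 member for the set B strain difference, where Ccnd1 turned to 0.077 (adjusted p = 0.945). The cause of these changes was not tested.

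Without libraries 489 and 6756 the counts were 344 genes and 1 member for the ACF mean, 1 in C57_wt, 192 in C3H_wt, 2 in C3H_MNX, 1 for C3H minus C57 titles, and 1075 genes and 1 member for the set A strain difference. Without libraries 489 and 6693, a choice made after seeing the data, they were 100 for the ACF mean, 1 in C57_wt, 39 in C3H_wt, 1 for the titles, and 861 genes and 1 member. A fit of its own 6 libraries passed 0 genes in C3H_MNX. With all 36 sham libraries grouped by genotype label, 2491 genes and 3 members passed for nucleus and 3 members for strain, and grouped by title prefix, 5524 genes and 13 members passed for nucleus and 4 members for strain. The strain difference of set B passed 4 to 7 members when each library was left out. Depth limits the 10 or 11 untested members, which had few counts. No paired analysis was possible because no replicate numbers were shared between groups.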
